A study of Mus musculus with 4 samples.

Results

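The genes examined here are those of the major histocompatibility complex (MHC) and of antigen presentation, in CD4 single-positive thymocytes of mice with and without a T cell deletion of Cul3. They were chosen by gene symbol: every symbol that starts with H2-, the mouse MHC prefix, and B2m, Tap1, Tap2, Tapbp, Cd74, Ciita, Nlrc5, Psmb8, Psmb9, Psmb10, Erap1, Calr, Pdia3 and Canx. Only probe sets that the platform annotation assigns to a single gene were used. They gave 37 genes, 23 of them with an H2- symbol, on 74 probe sets, of 18193 genes that single-gene probe sets name. The series held 4 Affymetrix arrays, 2 labelled KO and 2 labelled LM. The KO samples came from mice that carry the CD4-Cre transgene and floxed Cul3 alleles (CD4 Cre+ Cul3fl/fl), and the LM samples from mice with the same floxed alleles and no Cre (CD4 Cre- Cul3fl/fl), both in a B6 background. In both groups the cells were sorted as CD4+ and as negative for CD25, the CD1d-PBS57 tetramer, a stain for NKT cells, and the gamma delta T cell receptor. Cul3 encodes the cullin scaffold of ubiquitin ligases that use BTB-domain adaptors. The CD4 promoter drives Cre from the double-positive stage on, in cells that go on to either T cell lineage. No sample carried Cre without floxed Cul3, so effects of Cre and of Cul3 loss cannot be told apart.

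MHC class I molecules display peptides from inside the cell on nearly all nucleated cells, thymocytes included. Their heavy chain pairs with beta-2 microglobulin and takes up peptides that the proteasome cuts, the TAP transporter carries into the endoplasmic reticulum, and aminopeptidases trim there. MHC class II molecules display peptides from the endocytic pathway, mainly on dendritic cells, B cells, macrophages and thymic epithelium, where developing CD4 T cells read them. Mouse T cells are known to make little class II of their own.

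Signals are in arbitrary array units after quantile normalization, and differences are KO minus LM on the log2(signal + 16) scale, which understates the change of dim genes. A gene was represented by its brightest single-gene probe set. Background on an array was the level that 95% of 80 probe sets for olfactory or vomeronasal receptors do not exceed, namely 98.4 and 77.7 on the KO arrays and 106 and 92.3 on the LM arrays. Whether samples within a group came from different animals is not stated in the labels, so the p-values rest on a sample-to-sample spread that may be technical. With 2 arrays a group, the number of arrays limits the precision, and over all 11255 tested genes the standard error had a median of 0.22. Correlations between arrays over those genes ran from 0.961 to 0.974, with 0.964 for the KO pair and 0.974 for the LM pair. Of 11 listed CD4 T cell markers, 9 were measured and all 9 lay above background on every array, Cd4 itself at 7088 and 7327 on the KO arrays and 7983 and 7915 on the LM arrays. The probe set that represents Cul3 read 5326 and 5650 on the arrays labelled KO and 5501 and 5551 on the LM arrays (log2 difference -0.01, 95% interval -0.22 to 0.20). Neither the deleted exons nor the position of this probe set is given in the labels or files, so it cannot check the deletion, and the genotype is taken as labelled. In RNA from a cell population, fewer cells of a type and less RNA per cell cannot be told apart.

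None of the MHC and antigen presentation genes passed the test between KO and LM thymocytes. Of the 37 genes, 30 exceeded background on at least 2 arrays and were tested, and 0 of the 30 passed an adjusted p of 0.05 (limma, Benjamini-Hochberg over all genes), where 0.275% of all 11255 tested genes did. At an unadjusted p below 0.05 lay 2 of the 30, H2-T18 and H2-K1, against 8.4% of all tested genes. H2-T18 entered the test through its KO arrays alone, so the filter favoured its positive sign here and in the counts that follow. The arrays of the groups did not overlap for 15 of the 30, against 37.4% of all tested genes. Of these 15, the KO arrays were the lower in 9 (18.3% of all tested genes) and the higher in 6 (19.1% of all tested genes). Differences were negative for 16 of the 30, and for 49.7% of all tested genes. The median difference of the 30 was -0.01, and that of all tested genes 0.00. Over the 26 that exceeded background on all 4 arrays the median was -0.02, beside 0.00 over the 9793 genes that did so. A change of 2-fold or more in either direction lay outside the 95% interval for 24 of the 30 (80%), and for 75.9% of all tested genes. The interval reached 2-fold for Cd74, H2-Aa, H2-Ab1, H2-Eb2, Ciita and H2-T18.

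**Figure D1:**
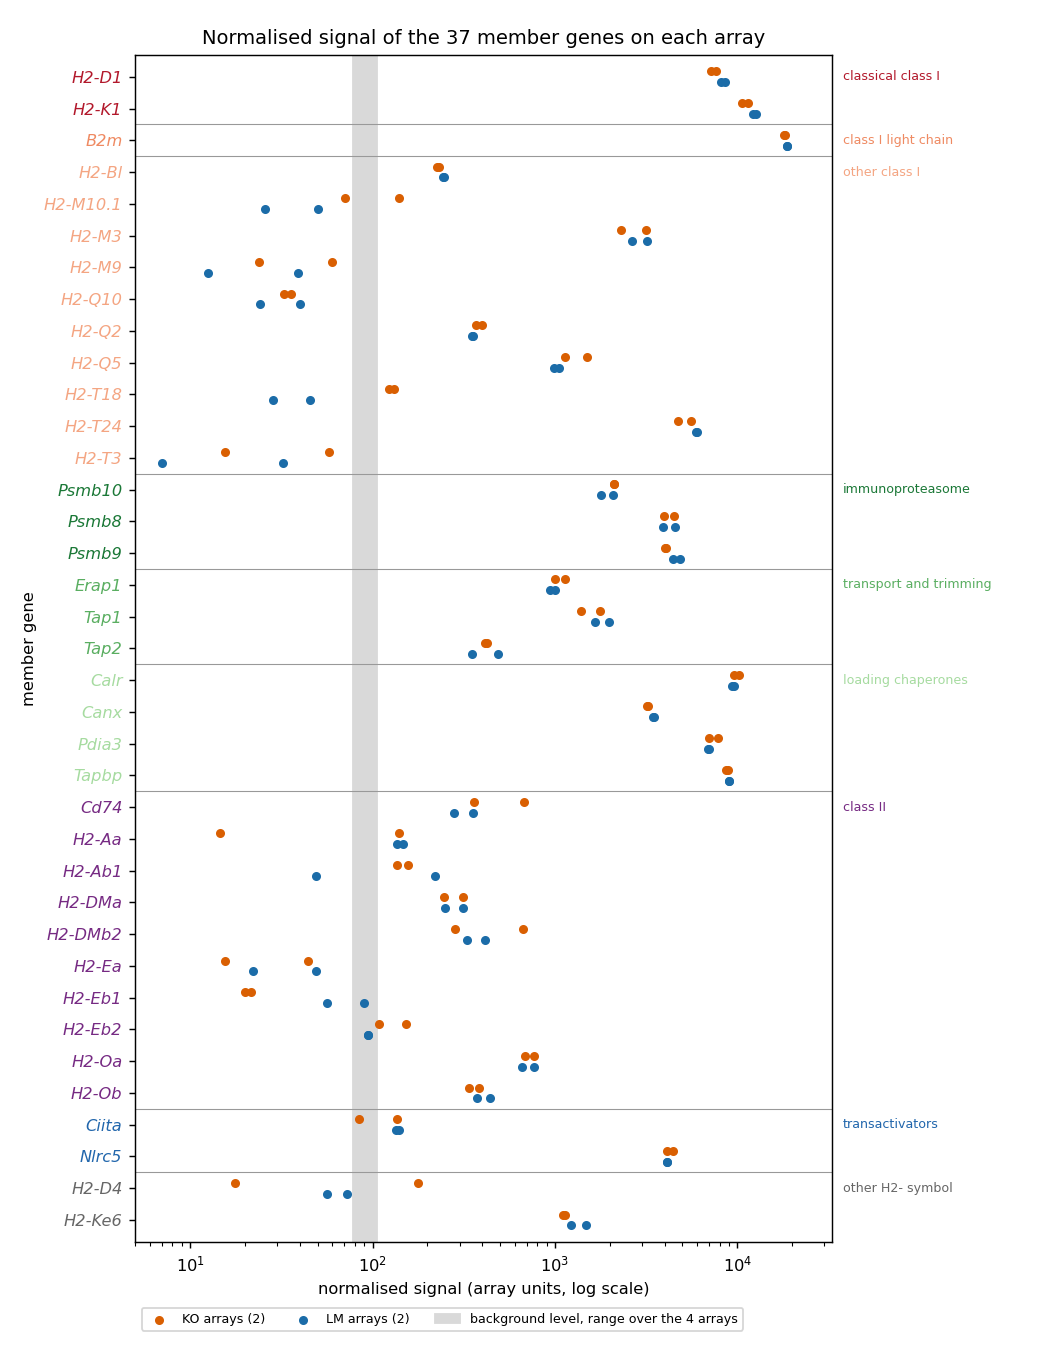
Normalised signal (array units, log axis) of each of the 37 genes on the 2 KO arrays (orange) and the 2 LM arrays (blue), grouped by role, with the range of the background level over the arrays in grey (77.7 to 106). H2-D1, H2-K1, B2m and the 10 processing genes sit to the right of the band on every array, while several class II genes have arrays in it or to its left.

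The classical class I heavy chains H2-K1 and H2-D1 present peptides to CD8 T cells. H2-K1 read 10596 and 11373 on the KO arrays, against 12573 and 12234 on the LM arrays. The KO arrays were the lower, by a difference of -0.18 ± 0.07 (SE), and H2-K1 did not pass the test (limma adjusted p = 0.499). Its 95% interval of -0.33 to -0.02 places the KO level between 79.7% and 98.4% of the LM level. H2-D1 read 7638 and 7129 on the KO arrays, against 8167 and 8579 on the LM arrays, again without overlap. Its difference was -0.18 ± 0.08 (SE, adjusted p = 0.594), so KO was at 88.2% of LM, as H2-K1 was at 88.5%. The H2-D1 difference was -0.067 with the mean of all its probe sets and -0.087 in the fit without LM replicate 2. In that fit the medians of the arrays left differed by less than 0.1, so quantile normalization was not applied. This holds for every fit without LM replicate 2 given below. B2m, the light chain that all these heavy chains need, read 18201 and 18070 on the KO arrays, against 18709 and 18651 on the LM arrays. Its groups did not overlap either, yet the difference was only -0.04 ± 0.05 (SE, adjusted p = 0.903), with an interval of -0.16 to 0.07. It was 0.025 in the fit without LM replicate 2, which was not quantile normalized. On the normalized signals both KO arrays lay below LM replicate 1 as well. On the deposited intensities the groups overlapped, with 18765 and 17524 on the KO arrays, against 17824 on LM replicate 1.

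Several probe sets read these chains. H2-D1 had 9, of which 6 were tested, and their differences ran from -0.48 to -0.07. H2-K1 had 4, all tested, from -0.38 to -0.13. With the 2 of B2m, 12 of 12 tested probe sets had a negative difference after quantile normalization, where 50.8% of all 21795 tested probe sets did. The 12 were negative also without normalization and under median centring, for which the share of all probe sets was not counted. Under median centring the median over all tested genes was -0.05, so negative signs were favoured there. On the normalized signals both KO arrays lay below both LM arrays in 7 of the 12, and in 18.5% of all tested probe sets. On the deposited intensities the groups overlapped for part of these 7. There KO replicate 1 was above LM replicate 1 on both B2m probe sets (18765 against 17824, and 17301 against 17155). It was so on a dimmer H2-K1 probe set too (8328 against 7922). The H2-D1 probe sets among the 7 and the probe set that represents H2-K1 stayed apart. Leaving out 1 array left 9 (without LM replicate 2), 10 (without KO replicate 2), 11 (without KO replicate 1) or 11 (without LM replicate 1) of the 12 negative. These counts are taken from the signals normalized over all 4 arrays, not from the fits with an array left out. Of the 12, 9 are of the kind that the array's maker marks as open to cross-hybridisation between similar transcripts. They share targets and are not 12 independent readings. Over all single-gene probe sets, 0.229% of 21795 passed the test at the probe-set level, and 0 of the 50 tested probe sets of the MHC and antigen presentation genes did. At an unadjusted p below 0.05 lay 6 of the 50, beside 7.97% of all. The sign differed between probe sets of the same gene for 4 of the 11 genes with more than 1 tested, namely Erap1, Pdia3, Psmb8 and H2-DMa. The second Psmb8 probe set was tested through its KO arrays alone, so the filter favoured its positive sign.

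**Figure D2:**
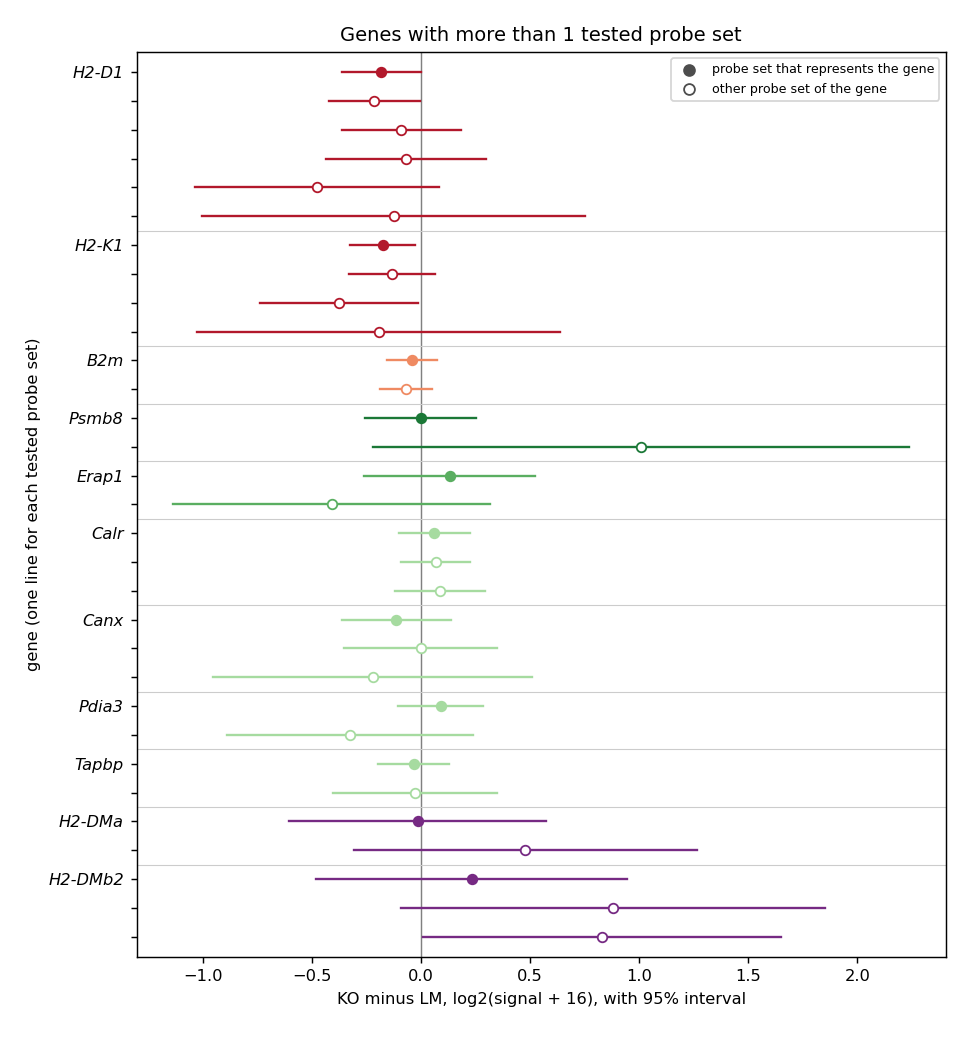
KO minus LM difference (log2 scale, horizontal axis) with its 95% interval for every tested probe set of the 11 genes that have more than 1, the probe set that represents the gene as a filled point and the others as open points. The 12 probe sets of H2-D1, H2-K1 and B2m all lie left of 0, and those of Erap1, Pdia3 and H2-DMa lie on both sides.

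The promoters were searched for elements that class I genes are known to carry. Enhancer A binds NF-kB, the interferon response element binds interferon regulatory factors, and the X2 and Y boxes bind CREB family factors and NF-Y in the module through which Nlrc5 acts on class I and Ciita on class II. RefSeq promoter entries (GRCm38.p6) were at hand for 26 of the 37 genes, and the 250 bases before each gene start were searched on both strands for GGGATTCCC (enhancer A), TTTCACTTC (class I interferon response element), GAAANNGAA (interferon-stimulated response element), TGACG (X2 core) and CCAAT (Y core). H2-D1 and B2m are shown as the heavy and light chain, and H2-Aa as a class II gene that carries the same X2 and Y cores but lies near background in these cells. Capitals mark the matches, ATTGG being CCAAT on the opposite strand. The windows are chr17:35262844-35263093 on the plus strand for H2-D1, chr2:122147437-122147686 on the plus strand for B2m and chr17:34287824-34288073 on the minus strand for H2-Aa.
H2-D1: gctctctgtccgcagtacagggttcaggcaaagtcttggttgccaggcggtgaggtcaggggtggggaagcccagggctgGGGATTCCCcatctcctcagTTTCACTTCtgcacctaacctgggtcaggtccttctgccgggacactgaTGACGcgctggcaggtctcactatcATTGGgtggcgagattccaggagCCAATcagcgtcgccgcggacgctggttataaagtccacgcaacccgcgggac
B2m: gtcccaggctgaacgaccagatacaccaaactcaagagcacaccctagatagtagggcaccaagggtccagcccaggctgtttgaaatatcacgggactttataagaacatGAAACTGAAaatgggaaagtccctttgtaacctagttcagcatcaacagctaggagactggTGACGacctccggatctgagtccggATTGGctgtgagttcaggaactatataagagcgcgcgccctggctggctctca
H2-Aa: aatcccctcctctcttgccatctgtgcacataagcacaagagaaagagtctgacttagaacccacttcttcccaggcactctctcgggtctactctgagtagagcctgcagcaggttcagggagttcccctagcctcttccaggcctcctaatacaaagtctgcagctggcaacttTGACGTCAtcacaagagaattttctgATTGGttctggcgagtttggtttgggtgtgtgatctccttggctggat

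In H2-D1 the matches lie 170 to 162 bases (enhancer A), 150 to 142 bases (interferon element), 101 to 97 bases (X2 core) and, for the Y core, 76 to 72 and 53 to 49 bases before the start. In B2m the interferon-stimulated element lies 139 to 131 bases, the X2 core 78 to 74 bases and the Y core 53 to 49 bases before the start. In H2-Aa an X2 core on each strand overlaps the other, at 74 to 70 and 71 to 67 bases, and the Y core lies at 48 to 44 bases. GGGATTCCC occurs in 0.301% of all 32851 windows of this length and, among the 26 genes, in H2-D1 and H2-K1. TTTCACTTC occurs in 0.402% of all windows and in H2-D1, H2-K1, H2-M3 and H2-Q10. GAAANNGAA occurs in 7.13% of all windows and, of the 26 genes, in B2m and Erap1. TGACG and CCAAT together occur in 6.12% of all windows and in 10 of the 26 genes, namely B2m, Canx, H2-Aa, H2-D1, H2-K1, H2-M10.1, H2-M3, Pdia3, Psmb9 and Tap1. The matches of Psmb9 and Tap1 are the same letters, in a stretch that both windows cover. A gene with several windows, such as H2-K1, counts if any of them matches, which raises the gene counts beside the shares of windows. TGACG alone occurs in 17.8% and CCAAT alone in 33.9% of all windows. These matches describe letters, not binding.

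The stretch that ends with the interferon element is shown for the classical genes and the nonclassical H2-M3, lined up on that element without gaps. The 30 bases are taken from chr17:35262923-35262952 (plus strand) for H2-D1, chr17:34000429-34000458 (minus strand) for H2-K1 and chr17:37270112-37270141 (plus strand) for H2-M3, with enhancer A and the interferon element in capitals.
H2-D1: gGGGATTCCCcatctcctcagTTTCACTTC
H2-K1: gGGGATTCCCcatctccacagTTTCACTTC
H2-M3: attcccccatttcctctgaggTTTCACTTC
H2-D1 and H2-K1 match at 29 of the 30 bases, and H2-M3 matches each of them at 14, of which 9 are the element itself. An alignment with gaps was not made.

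Among the other class I genes, which are less polymorphic and mostly more narrowly expressed, 6 of 10 were tested. H2-T24 read 5534 and 4750 on the KO arrays, against 5933 and 5990 on the LM arrays. Both KO arrays lay below both LM arrays, with a difference of -0.22 ± 0.10 (SE, adjusted p = 0.625). H2-M3, which presents formylated peptides of bacterial and mitochondrial origin, read 2298 and 3156 on the KO arrays, against 2652 and 3186 on the LM arrays. The groups of H2-M3 overlapped (-0.11 ± 0.16, SE, adjusted p = 0.922), and the sign turned without KO replicate 1 (0.12) or LM replicate 2 (0.033).

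H2-Q5, a transcribed pseudogene in RefSeq, read 1137 and 1489 on the KO arrays, against 988 and 1053 on the LM arrays. Its KO arrays were the higher (0.35 ± 0.19, SE, adjusted p = 0.690). H2-Q2 differed by 0.11 (adjusted p = 0.950), and H2-Bl, another transcribed pseudogene, by -0.10 (adjusted p = 0.968). Of the 8 class I chains, B2m included, that exceeded background on an array of each group, 6 had a negative difference and 2, H2-Q2 and the pseudogene H2-Q5, a positive one. Their median was -0.10, beside 0.00 over all tested genes, of which 49.7% had a negative difference. The 8 leave out H2-T18, whose difference was positive and is given below. Probe sets of H2-K1 and H2-D1 share targets, so these are not 8 independent readings.

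H2-T18, whose product is known as a thymus leukaemia antigen, entered the test through its KO arrays alone. It read 122 and 132 on the KO arrays, above background, against 45.2 and 28.5 on the LM arrays, below background on both. The LM level is therefore only a bound, and KO was at least 1.24-fold higher (fitted difference 1.45 ± 0.51, SE, limma adjusted p = 0.422). The other 4 class I genes were not tested. H2-M10.1, of a family known from the vomeronasal organ, read 70.2 and 140 on the KO arrays, against 25.9 and 50.4 on the LM arrays, with 1 KO array above background. H2-M9, H2-Q10, which encodes a class I chain secreted by the liver, and H2-T3 were below background on all 4 arrays.

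The genes that make and load class I peptides differed little between the groups on the probe sets that represent them. All 10 were above background on all 4 arrays, 0 passed the test, and their lowest adjusted p was 0.703. Differences ran from -0.21 to 0.13, with 95% intervals that together spanned -0.58 to 0.54, and the median was 0.01. Some dimmer tested probe sets lay outside that range. They differed by -0.41 for Erap1 (95% interval -1.14 to 0.32), -0.32 for Pdia3 (-0.89 to 0.24) and -0.22 for Canx. A dimmer Psmb8 probe set is given below. The other tested probe sets of Calr and Tapbp lay within the range.

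Psmb8, Psmb9 and Psmb10 are the catalytic subunits of the immunoproteasome. Psmb8 read 4489 and 3971 on the KO arrays, against 3928 and 4544 on the LM arrays. Its groups overlapped fully and the difference was -0.00097 ± 0.12 (SE), with an interval of -0.26 to 0.26. A second, dimmer Psmb8 probe set read 108 and 78.4 on the KO arrays, against 51.3 and 27.1 on the LM arrays, which is below background there, and averaging both probe sets gave 0.50 (adjusted p = 0.400). Psmb9 read 4019 and 4082 on the KO arrays, against 4430 and 4840 on the LM arrays, without overlap (-0.19 ± 0.11, SE, adjusted p = 0.703). Psmb10 read 2112 and 2100 on the KO arrays, against 1797 and 2093 on the LM arrays, and here the KO arrays were the higher (0.12 ± 0.15, SE, adjusted p = 0.902).

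Tap1 and Tap2 form the peptide transporter, and Erap1 trims peptides in the endoplasmic reticulum. Tap1 read 1395 and 1761 on the KO arrays, against 1660 and 1979 on the LM arrays. The groups overlapped, with a difference of -0.21 ± 0.17 (SE, adjusted p = 0.834). Tap2 read 415 and 424 on the KO arrays, against 349 and 488 on the LM arrays. Its KO pair lay inside the LM pair (0.02 ± 0.24, SE, adjusted p = 0.994). Erap1 read 996 and 1136 on the KO arrays, against 996 and 944 on the LM arrays, and the groups overlapped (0.13 ± 0.18, SE, adjusted p = 0.912).

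Psmb9, Tap1, Psmb8 and Tap2 follow each other on chromosome 17 with no other gene between them in RefSeq. Tap1 and Psmb9 start head to head, 225 bases apart, and share the stretch between their starts as promoter. It is printed because both genes are read from it and both had negative differences, -0.21 and -0.19, neither past the threshold. That choice followed the values, and 49.7% of all tested genes had a negative difference. A part of the shared stretch in these differences was not tested. Tap1 was at -0.041 without KO replicate 1 and at -0.086 without LM replicate 2, and Psmb9 at -0.097 without LM replicate 2. The stretch is chr17:34187331-34187555 (GRCm38.p6, shown on the plus strand), and the capitals mark a CCAAT and a TGACG match.
Tap1-Psmb9: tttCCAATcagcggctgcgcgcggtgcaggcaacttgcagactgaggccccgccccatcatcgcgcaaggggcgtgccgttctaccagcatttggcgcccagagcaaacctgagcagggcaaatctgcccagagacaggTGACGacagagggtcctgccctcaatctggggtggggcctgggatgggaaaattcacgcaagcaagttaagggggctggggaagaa

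Tapbp (tapasin), Calr (calreticulin), Pdia3 (ERp57) and Canx (calnexin) fold class I chains and hold them ready for peptide. Tapbp read 8691 and 8896 on the KO arrays, against 8974 and 9030 on the LM arrays (-0.03 ± 0.08, SE, adjusted p = 0.960). Canx read 3186 and 3236 on the KO arrays, against 3454 and 3498 on the LM arrays (-0.11 ± 0.12, SE, adjusted p = 0.873). In both genes the KO pair lay below the LM pair on the normalized signals without passing the test. The deposited intensities of Tapbp overlapped between the groups. Calr read 10182 and 9539 on the KO arrays, against 9571 and 9329 on the LM arrays (0.06 ± 0.08, SE, adjusted p = 0.902). Pdia3 read 7857 and 6950 on the KO arrays, against 6992 and 6886 on the LM arrays (0.09 ± 0.09, SE, adjusted p = 0.871). In these 2 the groups overlapped.

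**Figure D3:**
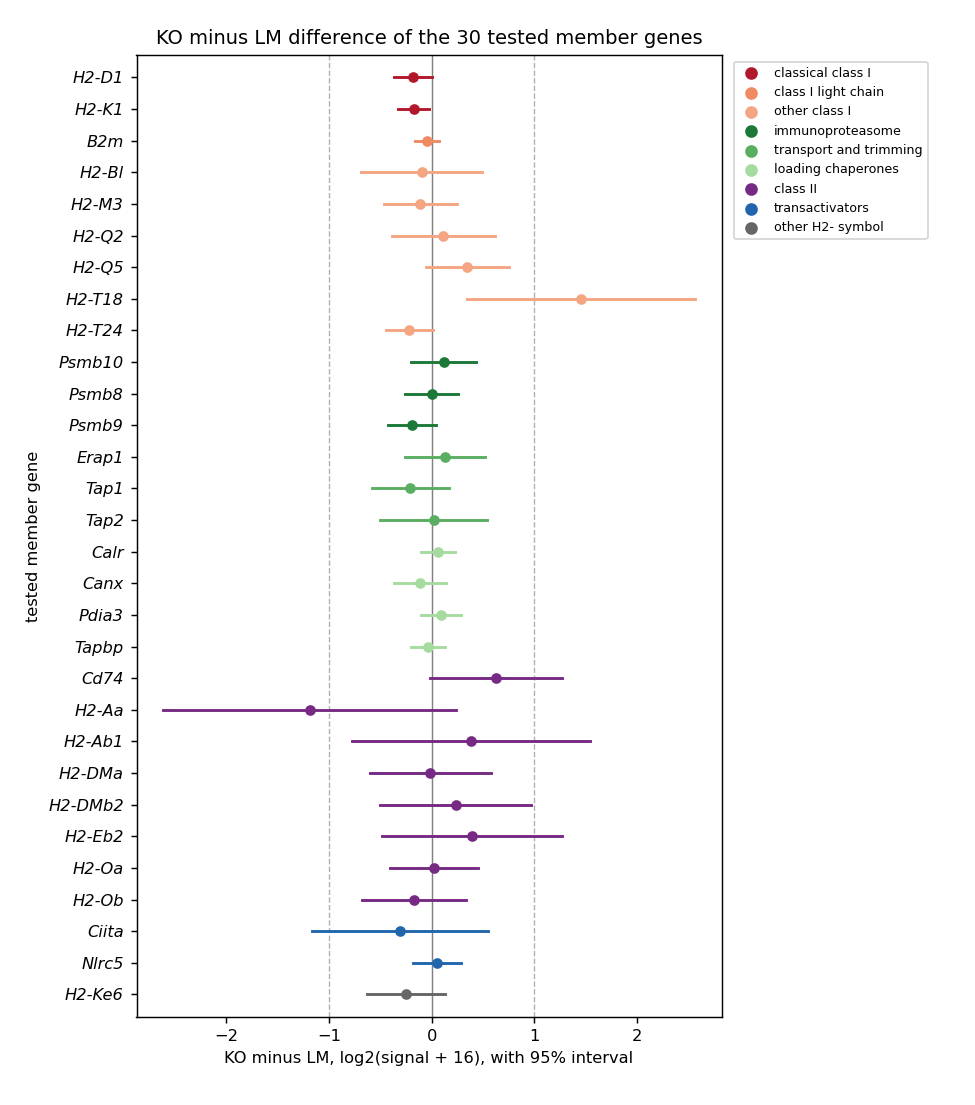
KO minus LM difference (log2 scale, horizontal axis) with its 95% interval for the 30 tested genes, coloured by role, with dashed lines at a 2-fold change. The 10 processing genes lie within -0.21 and 0.13, and the widest intervals are those of H2-Aa, H2-Ab1 and H2-T18.

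Nlrc5, the transactivator of class I genes, read 4126 and 4420 on the KO arrays, against 4106 and 4133 on the LM arrays. The groups overlapped and the difference was 0.05 ± 0.11 (SE, adjusted p = 0.950), with an interval of -0.18 to 0.28. Ciita, the transactivator of class II genes, read 137 and 84.8 on the KO arrays, against 135 and 140 on the LM arrays. KO replicate 2 stood low, and the difference of -0.31 ± 0.39 (SE, adjusted p = 0.905) was -0.01 without it.

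Several class II genes stood near or below background in both groups. Of 10, 8 were tested, 5 were above background on all 4 arrays, and the highest signal of any of them on any array was 771. None passed the test, the lowest adjusted p was 0.605, and the median of the 8 was 0.13. Cd74, the invariant chain that guides class II molecules to the endocytic pathway, read 360 and 678 on the KO arrays, against 279 and 353 on the LM arrays. Both KO arrays lay above both LM arrays, the lower by little, with a difference of 0.63 ± 0.29 (SE, limma adjusted p = 0.605). It was 0.19 without KO replicate 2 and 1.07 without KO replicate 1.

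H2-Aa and H2-Ab1 encode the alpha and beta chains of I-A, the class II molecule of B6 mice. H2-Aa read 141 and 14.6 on the KO arrays, against 137 and 147 on the LM arrays. On this probe set KO replicate 2 alone was below background and set the difference of -1.19 ± 0.65 (SE, adjusted p = 0.703), which was -0.01 without it. H2-Ab1 read 157 and 136 on the KO arrays, against 49.3 and 221 on the LM arrays. Here LM replicate 1 was below background, and the difference of 0.38 ± 0.53 (SE, adjusted p = 0.914) turned to -0.54 without it. A second H2-Aa probe set, not tested, read 90.0 and 113 on the KO arrays, against 24.5 and 64.8 on the LM arrays, so KO replicate 2 was its highest array and the only one above background. The arrays that stood low thus differed between the 2 chains and between probe sets of H2-Aa. H2-Eb1, the beta chain of I-E, read 21.5 and 20.0 on the KO arrays, against 89.7 and 56.3 on the LM arrays, below background throughout. H2-Ea, a transcribed pseudogene in RefSeq whose promoter is known to be deleted in B6 mice, read 44.0 and 15.5 on the KO arrays, against 49.3 and 22.0 on the LM arrays, also below background. H2-Eb2 read 152 and 108 on the KO arrays, against 94.5 and 94.0 on the LM arrays, with 3 of its 4 arrays above background (0.39 ± 0.40, SE, adjusted p = 0.875).

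H2-DMa and H2-DMb2 encode chains of the DM molecule, which loads peptide onto class II, and H2-Oa and H2-Ob those of DO, which restrains DM. H2-DMa read 311 and 245 on the KO arrays, against 314 and 249 on the LM arrays (-0.01 ± 0.27, SE, adjusted p = 0.996). H2-Oa read 771 and 685 on the KO arrays, against 771 and 663 on the LM arrays (0.02 ± 0.20, SE, adjusted p = 0.994). H2-Ob read 383 and 339 on the KO arrays, against 376 and 442 on the LM arrays (-0.17 ± 0.23, SE, adjusted p = 0.913). All 3 overlapped between the groups. H2-DMb2 read 665 and 284 on the KO arrays, against 327 and 416 on the LM arrays, so that the KO pair enclosed the LM pair (0.23 ± 0.34, SE, adjusted p = 0.918). Its 2 other probe sets differed by 0.88 and 0.83, with LM replicate 1 the lowest array of both, at 121 and 132. The first of them differed by 1.79 without LM replicate 2, a run that was not quantile normalized. It passed the probe-set test in that run and at no other setting tried.

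Markers of the cells that carry class II were set beside these values. Of 8 measured B cell markers, 2 were above background on at least 2 arrays, and Cd79b, Ms4a1 and Pax5 were below it on all 4. The summed signal of all measured B cell markers was 358 and 447 on the KO arrays, against 420 and 392 on the LM arrays. Of 9 dendritic cell markers 3 were above background on at least 2 arrays, with Itgax, Flt3 and Xcr1 below it on all 4, and their sum was 1644 and 1590 on the KO arrays, against 1373 and 1505 on the LM arrays. The macrophage and monocyte sum, with 3 of 10 above background, was 664 and 555 on the KO arrays, against 642 and 714 on the LM arrays. The thymic epithelial sum, with 4 of 9 above background and Foxn1 and Psmb11 below it on all 4 arrays, was 1169 and 1490 on the KO arrays, against 1909 and 1407 on the LM arrays. The dendritic cell sum was the higher on both KO arrays, as Cd74 was, through Bst2, an interferon-induced gene that many cell types can express, at 844 and 860 on the KO arrays, against 644 and 757 on the LM arrays. Without Bst2, a choice made after its values were seen, the sum was 800 and 730 on the KO arrays, against 728 and 748 on the LM arrays, which overlap. Most of that sum was Zbtb46, at 663 and 427 on the KO arrays, against 477 and 517 on the LM arrays. The other 3 sums overlapped as well. Their part in the class II values was not tested. The CD8 T cell markers, all 3 above background, summed to 2367 and 2004 on the KO arrays, against 2183 and 2132 on the LM arrays.

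The last 2 genes carry an H2- symbol by position or history. H2-Ke6, a steroid dehydrogenase gene inside the MHC, read 1141 and 1112 on the KO arrays, against 1218 and 1477 on the LM arrays. Its KO arrays were the lower (-0.25 ± 0.17, SE, adjusted p = 0.793). H2-D4, a transcribed pseudogene in RefSeq, read 17.6 and 178 on the KO arrays, against 56.6 and 72.5 on the LM arrays, with 1 array above background, and was not tested. Of the 37 genes, 28 lie on chromosome 17, where the mouse MHC is, 3 on chromosome 8, 2 on chromosome 2 and 1 each on chromosomes 11, 13, 16 and 18.

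**Figure D4:**
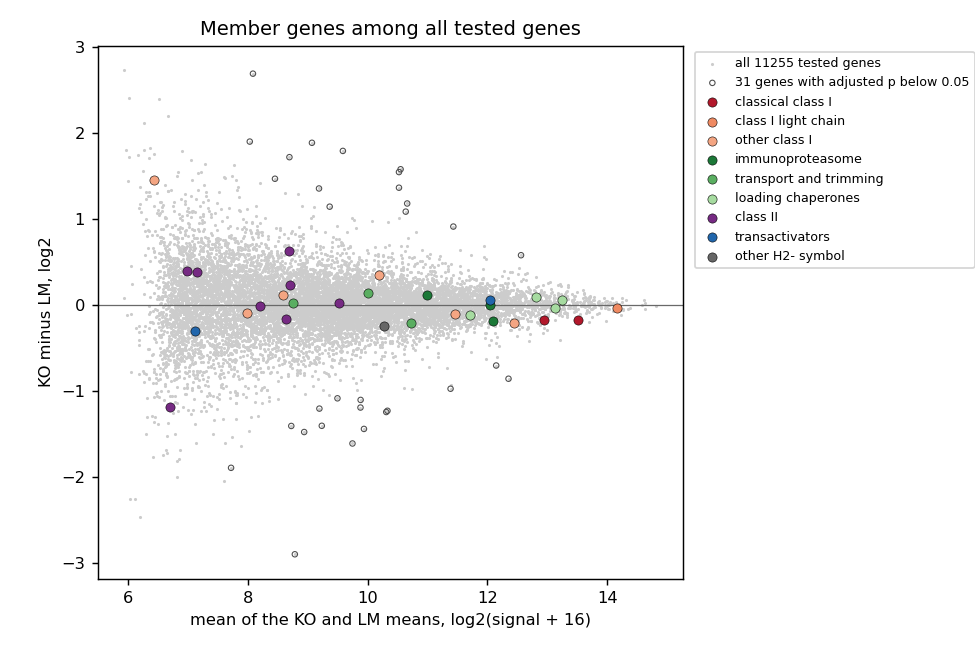
KO minus LM difference (log2, vertical axis) against the mean of the KO and LM means (log2(signal + 16), horizontal axis) for all 11255 tested genes in grey, with the 31 that passed the test circled and the 30 MHC and antigen presentation genes coloured by role. The coloured points stay within the grey cloud, and 0 of them are circled.

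Other genes of the pathway, listed by role but with earlier results of these data known, gave the same count. Of 71 listed genes 60 had a single-gene probe set, 51 were tested, 0 passed the test, beside 0.275% of all tested genes, and 3 lay at an unadjusted p below 0.05, beside 8.4% (limma). Among 20 tested MHC regulators the median was 0.00. The interferon gamma receptor chain Ifngr1 read 781 and 862 on the KO arrays, against 430 and 640 on the LM arrays (0.63, adjusted p = 0.427), and both KO arrays were the higher. Nfya, a subunit of the factor that binds CCAAT, read 3154 and 3080 on the KO arrays, against 3650 and 4158 on the LM arrays (-0.32, adjusted p = 0.453), and both KO arrays were the lower. Rfx5, which binds the X box of class II genes, differed by 0.34 with overlapping groups (adjusted p = 0.760), and the NF-kB subunit Rela by -0.34 (adjusted p = 0.804).

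Among 20 tested class I processing partners the median was 0.00. The 4 with the smallest p were the constitutive proteasome subunit Psmb5 (-0.33, adjusted p = 0.710), the translocon subunit Sec61a1 (0.12, adjusted p = 0.807), the chaperone Hspa5 (0.14, adjusted p = 0.809) and the proteasome subunit Psmb7 (0.22, adjusted p = 0.822). Among 6 tested class II partners the median was 0.10. Cd83, which slows the turnover of class II at the cell surface, read 141 and 223 on the KO arrays, against 111 and 18.9 on the LM arrays. LM replicate 2 was below background, the difference was 1.54 (adjusted p = 0.458), and Cd83 passed the test only without LM replicate 1 (2.45, adjusted p = 0.038). The cathepsins Ctsd, Ctsb and Ctss differed by 0.13, 0.11 and 0.08.

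Among 5 tested class I-like molecules outside the H2- names the median was 0.29, also with Fcgrt at its bound. Cd1d1, which presents lipids to NKT cells, read 1329 and 1631 on the KO arrays, against 1199 on each LM array, and its KO arrays were the higher (0.29, adjusted p = 0.724). Cd1d2, its close relative, read 672 and 551 on the KO arrays, against 548 and 428 on the LM arrays (0.32, adjusted p = 0.793). Fcgrt, the neonatal Fc receptor chain, read 165 and 111 on the KO arrays, against 101 and 66.7 on the LM arrays, below background on both. It entered the test through its KO arrays alone, and KO was at least 1.32-fold higher (limma adjusted p = 0.788). Ulbp1, a ligand of the NKG2D receptor, read 310 and 476 on the KO arrays, against 677 and 491 on the LM arrays, and its KO arrays were the lower (-0.57, adjusted p = 0.598). None of these was past the threshold, and the 2 CD1 genes are near-identical copies whose probes may read each other's transcripts.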

How the data were processed

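Total RNA from sorted thymocytes was amplified, labelled with biotin and hybridised to arrays, per the labels' protocols. For every probe set and array the authors deposited a linear intensity, scaled to a mean of 500.0 after trimming 2% at each end. How probes were summarised and background was corrected is not given in the sources used here. Among 45101 probe sets, 64 were controls and left out, 34945 carried a single gene symbol and were named from the platform annotation, and 932 with several and 9160 with none were not. Of the named, 34741 matched RefSeq.

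The deposited intensities were taken as log2(value + 16) and quantile normalized, since array medians differed by 0.16, over the 0.1 allowed. Genes above background on at least 2 arrays were fitted by lmFit and eBayes with an intensity trend (limma 3.58.1, R 4.3.3) for genotype alone, and two-sided p-values were adjusted by Benjamini-Hochberg over all genes. Each gene had 2 residual degrees of freedom and borrowed 9.96 from the others. It was tested on simulated data. Intervals are 95% and do not allow for the number of genes. A gene below background on both arrays of a group is given as a bound, with that group raised to background on each array. Tables used Python 3.11.15 and pandas 2.3.3, plots matplotlib 3.10.9. Sequences are RefSeq's, GRCm38.p6.

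The genes, the lists and the markers were chosen with earlier results of these data known. Values per array are given for a fixed list of 26 presentation genes where measured (H2-T23 and H2-Q7 have no single-gene probe set) and the 5 other tested genes with the smallest p, namely H2-T18, H2-T24, H2-Q5, H2-Ke6 and H2-Eb2. Values of the remaining genes and of the partners with the smallest p, up to 4 a list, are given in brief. Alternatives tried were the filter on dim genes, the normalization, the pseudocount (1 and 64), the moderation, the mean of all probe sets, a replicate block and each array left out. With an array left out, the rule on array medians was applied afresh. Without LM replicate 2 the medians differed by less than the 0.1 allowed, so that run was not quantile normalized.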

Additional observations from a re-analysis of the deposited data

How the results depend on the processing

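The count of 0 of the MHC and antigen presentation genes past the threshold held under every alternative run, and so did the sign of 16 of the 28 genes followed. H2-T18, which entered the test through its KO arrays alone, is among the 16. The median of the tested MHC and antigen presentation genes ran from -0.07 to 0.03. It was -0.06 under median centring, where that of all genes was -0.05. Over 381 combinations of gene and setting, 0 passed and 21 changed sign. The sign turned under median centring for H2-Oa (-0.037), Nlrc5 (-0.011) and Tap2 (-0.036), and with the mean of all probe sets for H2-DMa (0.23), Psmb8 (0.50), Erap1 (-0.14) and Pdia3 (-0.12). Leaving out 1 array at a time gave B2m -0.040 to 0.025, Tapbp -0.051 to 0.031, H2-M3 -0.34 to 0.12, H2-Oa -0.11 to 0.13, Psmb8 -0.11 to 0.12, H2-DMa -0.21 to 0.15, Tap2 -0.21 to 0.21, H2-DMb2 -0.36 to 0.83 and H2-Ab1 -0.54 to 1.32. With no change of sign, the same runs gave H2-K1 -0.23 to -0.12, H2-D1 -0.23 to -0.087 (-0.067 with the mean of all probe sets), H2-T24 -0.32 to -0.11, Psmb9 -0.26 to -0.097, Tap1 -0.38 to -0.041, H2-Ke6 -0.39 to -0.12, H2-Q5 0.15 to 0.54, Psmb10 0.0089 to 0.24, Cd74 0.19 to 1.07 and H2-Aa -2.38 to -0.01. Among probe sets of these genes the same runs gave 0 to 1 past the threshold, and among the partner genes 0 to 1, namely a H2-DMb2 probe set without LM replicate 2 and Cd83 without LM replicate 1. A fit that leaves 1 array in a group assumes that it varies like the other group. Of these runs, only that without LM replicate 2 was not quantile normalized. The positive ends for B2m and Tapbp come from it. On the normalized signals both KO arrays lay below LM replicate 1 in both of these genes. On the deposited intensities they did not. There B2m read 18765 and 17524 on the KO arrays, against 17824 on LM replicate 1. Tapbp read 8882 and 8746 on the KO arrays, against 8628 on LM replicate 1.

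Over all genes, 31 passed. Without the filter on dim genes 0 of 18193 did (limma, 1247 at an unadjusted p below 0.05), without the intensity trend 0 (922 at an unadjusted p below 0.05), and under median centring 81, of which 38 were higher and 43 lower. Leaving out 1 array gave 35 to 90 (59 without KO replicate 1, 69 without LM replicate 1 and 90 without LM replicate 2). The run without LM replicate 2 was the only one of these without quantile normalization, so it changed the normalization as well as the arrays. The causes were not tested. With the replicate number as a block, 43 genes and 0 of the MHC and antigen presentation genes passed. Deviations of same-numbered arrays correlated at -0.02, so the numbers are not taken to pair the samples.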

Other observations

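A further 15 probe sets list several genes, at least 1 of them an H2- gene or another of the presentation genes, and were left out of every count. Their values were looked at after those of the single-gene probe sets were known. Of the 15, 12 exceeded background on at least 2 arrays. Both KO arrays lay below both LM arrays in 8 of these 12, beside 18.5% of all 21795 tested single-gene probe sets. They lay above both LM arrays in 2, beside 19.1% of all tested genes, a share counted over genes and not probe sets. Of these 2, 1 exceeded background on its KO arrays alone. Differences over the 15 ran from -0.75 to 0.75 and were not tested. By their annotation they read more than 1 transcript, and they are not independent of the single-gene probe sets.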
